A study of Homo sapiens with 38 samples.

Results

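The E2F family of transcription factors and their partner pocket proteins were followed in the RKO line of human colorectal cancer by RNA sequencing (RNA-seq). The 10 genes E2F1 to E2F8, RB1 and RBL1 were chosen by symbol from the 25594 entries of the expression table, with earlier results of these data known. They were chosen because the paper on these cells names E2F binding motifs. All 10 were listed, and 9 of them passed a mean of at least 1 FPKM (mapped fragments scaled to exon length in kilobases and to library size) over the libraries and were tested. E2F8, with a mean of 0.834 FPKM, did not pass and is given by its values.

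The cells received DMSO, the lysine-specific demethylase 1 (LSD1) inhibitor NCD38, or NCD38 joined through a β-alanine linker to a pyrrole-imidazole polyamide, a minor-groove binder that reads DNA sequence. NCD38-β2P4 carries pyrroles only and is designed for runs of A and T, whereas NCD38-β2PIPP has an imidazole in place of a pyrrole and is designed for CG flanked by A and T. RNA was taken on day 4 and on day 30, and each of the 8 conditions had 1 library, among 38 samples of all assays. The labels give 2 µM compound with 0.1% DMSO for both days and medium renewed every 5 days, while the methods text gives the day 4 dose in mM, so the day 4 dose is not certain. All groups are 1 unmodified cell line, and no library has a replicate of its own condition.

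E2F proteins bind short GC-containing elements in the promoters of genes for DNA replication and the cell cycle. RB1 and its relative RBL1 (p107), called pocket proteins, hold E2Fs inactive until cyclin-dependent kinases phosphorylate them. E2F1, E2F2 and E2F3 are known as activators, E2F4 and E2F5 act mostly as repressors together with RBL1 and RBL2, E2F6 represses through a Polycomb complex and binds no pocket protein, and E2F7 and E2F8 are atypical repressors that bind DNA without a DP partner. Several of these genes are themselves textbook E2F targets. LSD1 removes methyl groups from lysine 4 of histone H3.

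The promoters were searched for letters that E2F proteins are known to prefer, a match being a description and not a bound site. The windows of 250 bases before to 50 after each start, taken from NCBI RefSeq (GRCh38.p14) and placed in GRCh37 by exact match, were searched on both strands for the E2F letters TTTCGCGC, TTTGGCGC, TTTCCCGC and TTTGCCGC. Of all 35116 windows of this length, 3.31% held at least 1 of them. RefSeq windows were found for 8 members. The one for RB1 begins 172699 bases inside the gene and was not used, and E2F5 and E2F8 had none. Matches stood before E2F1, E2F2, E2F3 and RBL1, whose 70 bases before the start are shown because they hold every match found, in capitals on the strand of the gene.
E2F1: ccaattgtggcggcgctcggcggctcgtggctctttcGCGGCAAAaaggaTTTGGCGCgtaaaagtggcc
E2F2: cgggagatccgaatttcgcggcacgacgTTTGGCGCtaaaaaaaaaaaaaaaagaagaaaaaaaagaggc
E2F3: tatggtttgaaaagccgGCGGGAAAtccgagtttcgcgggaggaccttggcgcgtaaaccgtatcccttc
RBL1: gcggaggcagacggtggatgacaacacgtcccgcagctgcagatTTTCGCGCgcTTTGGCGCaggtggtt

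In GRCh37 these windows are chr20:32274192-32274261 (minus strand) for E2F1, chr1:23857726-23857795 (minus) for E2F2, chr6:20402040-20402109 (plus) for E2F3 and chr20:35724401-35724470 (minus) for RBL1, each directly upstream of the annotated gene. The first base of a match lay 33 and 20 bases before the start in E2F1, 42 in E2F2, 53 in E2F3, and 26 and 16 in RBL1. The E2F3 window also held TTTGAA, the letters of the cell cycle homology region (CHR) that the MuvB complexes bind, 65 bases before the start. TTTGAA occurred in 15.2% of all windows. The windows of E2F4, E2F6 and E2F7 held no match to the E2F letters, which says nothing of E2F binding there. The second window listed for E2F3, 1735 bases downstream, held none either.

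Depth is not recorded in FPKM. Estimated from the lowest nonzero values and transcript lengths, it was about 13300000 to 23700000 fragments per library, and a second reading of the same values gave about 11900000 for the day 30 libraries of both conjugates. Of the epithelial markers, KRT18 was at 76.2 to 121 FPKM, KRT8 at 6.58 to 19.0, CDX2 at 7.48 to 11.6 and EPCAM at 0.0922 to 6.53, while CDH1 stayed at or under 0.0642 and KRT20, CDX1 and VIL1 were listed at 0. The summed markers of fibroblasts, immune cells and endothelial cells reached at most 0.0270, 0.0801 and 0.0152. The libraries of both days differed in most genes. limma on log2(FPKM + 1) called 3277 of 10865 tested genes higher and 3445 lower on day 30, so that 48.8% of the calls were higher. After rescaling by the median ratio, 4238 were higher and 2514 lower, 62.8% of the calls, with the median of all genes moving from -0.02 to 0.24 on the log2 scale. The day difference followed the GC content of the transcript. Its median was 1.34 in the fifth of genes with the lowest GC and -0.74 in the fifth with the highest, and Spearman's rho over 10088 genes of the same libraries was -0.684. Day cannot be told apart from any other difference in handling between the libraries of each day.

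E2F4 was the most abundant member, E2F1 the next, and the rest were low. E2F4 ranged from 97.5 to 110 FPKM on day 4 and from 57.5 to 62.6 on day 30. E2F1 ranged from 38.5 to 54.9 and from 15.0 to 19.4. FPKM is scaled to length but not to GC content, which the day difference followed. The order of the genes by level is therefore approximate. On day 4, the ranges of E2F4, E2F1, E2F2 and E2F6 followed each other without overlap in this order, and from E2F6 downward each gene overlapped the next. On day 30 the order was E2F4, E2F1, E2F6, E2F3 and RB1 without overlap. RB1, E2F5, E2F7, RBL1 and E2F2 then overlapped from neighbor to neighbor, and E2F8 lay below all.

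The day comparison asked how the genes stood after long against short treatment, over the 4 treatments. Here 3 of the 9 tested members fell and 2 rose. All 3 that fell, E2F1, E2F2 and E2F4, lay below every day 4 library on day 30, and both that rose, E2F6 and RB1, lay above. Of all tested genes, 31.7% were called lower and 30.2% higher, and 33.1% had day 30 libraries all below and 29.5% all above. The members' shares were close to this background. The p-values measure how alike the difference was over the 4 treatments, not over replicate cultures. An exact two-sided sign-flip test of 4 pairs cannot go below p = 0.125, the value that each of these 5 genes gave.

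Among the activators, E2F1 fell. In DMSO, NCD38, NCD38-β2P4 and NCD38-β2PIPP cells, in this order, its level was 48.6, 54.9, 43.4 and 38.5 FPKM on day 4 and 18.2, 15.0, 17.8 and 19.4 FPKM on day 30. The groups did not overlap, and the mean fell from 46.3 ± 7.03 to 17.6 ± 1.86 FPKM (SD over the 4 treatments), 2.63-fold. On the log2(FPKM + 1) scale the difference was -1.34 ± 0.17 (SE; limma with treatment as a block, adjusted p = 0.00154).

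E2F2 fell most among the members. Its level was 6.44, 5.96, 5.20 and 6.45 FPKM on day 4 and 1.51, 1.33, 1.78 and 1.90 FPKM on day 30, in the same order of treatments. The means were 6.01 ± 0.590 and 1.63 ± 0.258 FPKM, a 3.68-fold difference, with -1.41 ± 0.16 on the log2 scale and adjusted p = 0.00114. E2F3 behaved otherwise. It stood at 2.88, 1.16, 4.14 and 5.91 FPKM on day 4 and at 5.07, 6.27, 5.67 and 5.11 FPKM on day 30, so that the days overlapped. Its log2 difference of 0.65 (95% interval -0.18 to 1.47, adjusted p = 0.139) was not called, but it was called higher after rescaling (0.91, adjusted p = 0.034) and after the GC trend was subtracted (0.42, adjusted p = 0.0437).

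Of the repressors that work with pocket proteins, E2F4 fell. It was at 97.5, 104, 110 and 103 FPKM on day 4 and at 58.1, 62.6, 57.5 and 59.2 FPKM on day 30. Both days were tight, and the 1.74-fold difference (-0.79 ± 0.10 on the log2 scale, adjusted p = 0.00153) was well outside their spread. E2F5, at 2.45, 1.34, 2.91 and 3.82 FPKM on day 4 and 3.59, 4.24, 4.38 and 2.41 FPKM on day 30, overlapped between the days. Its difference was 0.38 (95% interval -0.33 to 1.10, adjusted p = 0.286).

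E2F6, the Polycomb-linked member, rose. Its levels of 3.86, 1.72, 3.99 and 4.99 FPKM on day 4 were all below the 6.95, 6.35, 7.07 and 6.99 FPKM of day 30. The mean was 1.88-fold higher and the log2 difference was 0.81 ± 0.21 (adjusted p = 0.0195). Leaving out a library of DMSO or of NCD38-β2P4 gave differences as large, of 0.85, with adjusted p-values of 0.0761 to 0.0846.

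Neither atypical member was called. E2F7 was at 1.67, 0.795, 2.84 and 4.57 FPKM on day 4 and at 2.03, 1.59, 2.47 and 2.04 FPKM on day 30, with a log2 difference of -0.08 (95% interval -0.73 to 0.57, adjusted p = 0.811). E2F8 was the least abundant member on day 30. It had 0.558, 0.298, 1.30 and 2.00 FPKM on day 4 and 0.461, 0.501, 0.927 and 0.630 FPKM on day 30. In both genes the widest values were those of day 4, with NCD38 lowest and NCD38-β2PIPP highest, and the day 30 values lay between them.

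The pocket protein gene RB1 rose. In the same order of treatments it was at 0.510, 0.275, 0.842 and 2.13 FPKM on day 4 and at 3.78, 4.39, 4.67 and 3.06 FPKM on day 30. The highest day 4 value, that of NCD38-β2PIPP, was below the lowest of day 30. The mean rose 4.23-fold, from 0.938 ± 0.825 to 3.97 ± 0.714 FPKM, and the log2 difference was 1.43 ± 0.30 (adjusted p = 0.00953). The low day 4 values rest on few fragments, an estimated 17.5 with NCD38 and 135 with NCD38-β2PIPP. Without either DMSO library the difference was 1.36 and the adjusted p 0.0521 to 0.053. The difference was -0.15 and not called with the GC trend subtracted. RBL1 was at 0.419, 0.344, 0.741 and 2.18 FPKM on day 4 and at 1.51, 1.43, 2.11 and 1.74 FPKM on day 30. Here 3 of the 4 pairs were higher on day 30 and the NCD38-β2PIPP pair was lower. The log2 difference of 0.58 (95% interval -0.010 to 1.16, adjusted p = 0.0794) was not called, but without either NCD38-β2PIPP library it was 0.84 and called (adjusted p of at most 0.00398).

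The level of E2F1 over that of RB1 shifted with these changes. The ratio of FPKM was 95.2, 199.5, 51.6 and 18.1 on day 4 with DMSO, NCD38, NCD38-β2P4 and NCD38-β2PIPP, and 4.81, 3.42, 3.82 and 6.36 on day 30. E2F4 over E2F1 went from between 1.89 and 2.66 on day 4 to between 3.05 and 4.17 on day 30. The days did not overlap in either ratio, which uses the same values as the differences above. With the GC trend subtracted, as described next, the day difference was -0.64 in E2F1 and -0.15 in RB1. With genes below the filter included as well, it was -1.08 in E2F1 and 0.47 in RB1. The gap between these genes was smaller in both settings, by an amount that depended on the filter.

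The members that fell and rose also differed in base composition. Transcript GC was 61.6% in E2F1, 58.1% in E2F4 and 57.4% in E2F2, the 3 members above the 49.6% median of tested genes. It was 46.9% in E2F5, 46.3% in E2F3, 44.7% in E2F8, 44.3% in E2F6, 43.1% in E2F7, 40.0% in RBL1 and 37.1% in RB1. When the trend with GC was subtracted within each library, E2F1 (-0.64, adjusted p = 0.00587) and E2F2 (-0.70, adjusted p = 0.00338) stayed called lower and E2F6 (0.41, adjusted p = 0.0173) stayed called higher. E2F4 kept -0.07 (adjusted p = 0.588) and RB1 turned to -0.15 (adjusted p = 0.42), both not called. RBL1 turned to -0.63 (adjusted p = 0.0118) and E2F7 moved to -0.76 (adjusted p = 0.00295), both called lower. Part of this depended on the filter. With genes below the filter included as well, E2F4 was -0.51 and called lower (limma, adjusted p = 0.00619). RB1 was then 0.47 and RBL1 -0.12, neither called. After rescaling without GC subtraction, RBL1 was called higher. The subtracted trend is the same for all genes of a GC bin, whatever their level. The added 1 understates changes of low genes such as RB1 and RBL1 on day 4. How far this moved their differences was not tested.

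**Figure D1:**
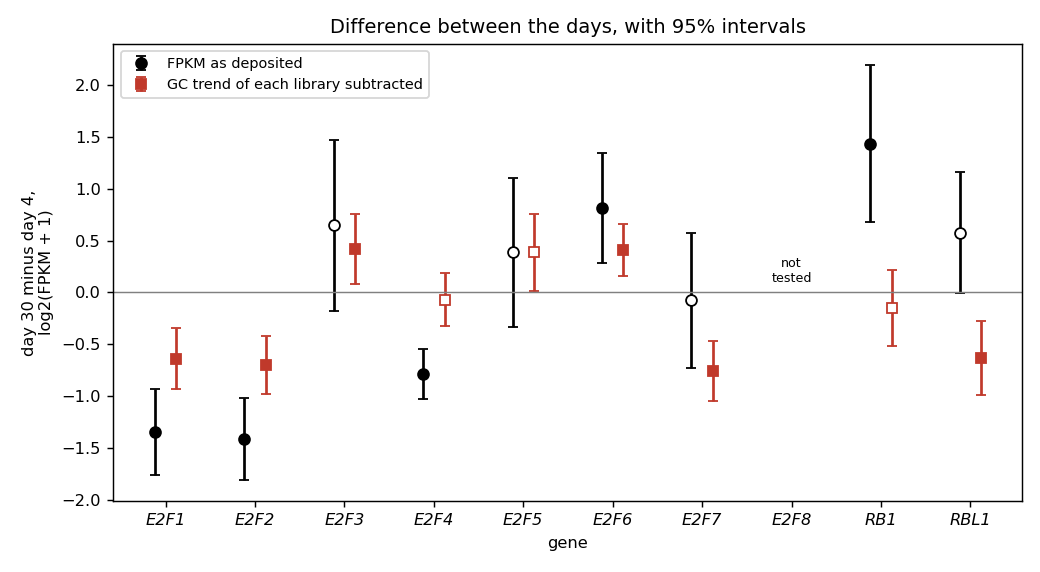
Difference between day 30 and day 4 in log2(FPKM + 1) for each gene, with 95% intervals from limma, from FPKM as deposited (black circles) and with the GC trend of each library subtracted (red squares). Filled symbols have an adjusted p under 0.05. E2F1, E2F2 and E2F6 kept their side in both, E2F4 and RB1 moved to near 0, and RBL1 and E2F7 were called lower only with the GC trend subtracted. Without the filter on low FPKM, which is not shown, E2F4 with the GC trend subtracted stayed lower, at -0.51. RB1 was then 0.47 and RBL1 -0.12, neither called.

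The effect of the inhibitors was read against DMSO of the same day. In tests over both days, no member was called for any inhibitor against DMSO, nor for NCD38, NCD38-β2P4 or NCD38-β2PIPP alone. limma gave 0 of 9 members in each of these 4 contrasts, and 0 at an unadjusted p under 0.05. The background of calls was also near 0, at 0.00920% of tested genes for any inhibitor, 0.0368% for NCD38, 0.0184% for NCD38-β2P4 and 0.0184% for NCD38-β2PIPP. At an unadjusted p under 0.05 the background was 0.543%, 1.33%, 0.295% and 0.571%, in the same order. For any inhibitor, the difference in E2F1 was -0.08 (95% interval -0.48 to 0.31), in E2F4 0.07 (-0.17 to 0.32), in E2F6 -0.10 (-0.76 to 0.57), in RB1 0.21 (-0.55 to 0.97) and in RBL1 0.30 (-0.43 to 1.02). The interval was narrow in E2F4 and wide in the low genes. In these tests, and in those between inhibitors, the libraries of both days stood in as replicates. A ratio that differed between the days therefore widened the spread. An exact test that moves the DMSO label within days cannot go below p = 0.0625.

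On day 4, the low members were lower with NCD38 and higher with NCD38-β2PIPP than with DMSO. With NCD38, 8 of 10 members were lower, and the median log2 ratio over the members was -0.25, beside -0.21 over all tested genes. E2F3 and E2F6 had the lowest ratios, both -0.84, while E2F1 was at 0.17 and E2F4 at 0.09. No member passed 2-fold with the added 1, as 5.41% of tested genes did. E2F8, RB1 and RBL1, at 0.558, 0.510 and 0.419 FPKM with DMSO, could not fall 2-fold on that scale. Without the added 1 the ratios of E2F3, E2F6 and E2F7 were -1.31 ± 0.368, -1.17 ± 0.382 and -1.07 ± 0.426, where ± is an approximate 95% counting error from the estimated depth and covers counting only.

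With NCD38-β2PIPP on day 4, 9 of 10 members were higher, E2F2 by only 0.0015, and E2F1 was lower, at -0.33. RBL1 (1.17), E2F7 (1.06) and RB1 (1.05) passed 2-fold, as did 11.2% of all tested genes. The median over the members was 0.66, beside 0.17 over all tested genes. Without the added 1, RBL1 was 2.38 ± 0.498 and RB1 2.06 ± 0.505. These ratios moved with GC in these 2 libraries. Across tested genes, Spearman's rho between the ratio and GC was -0.693 with NCD38-β2PIPP and 0.59 with NCD38, and the fifth of genes lowest in GC had a median of 0.78 with NCD38-β2PIPP and -0.35 with NCD38. The part of GC in the ratios of single libraries was not tested.

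With NCD38-β2P4 on day 4, 8 of 10 members were higher, with a median of 0.23 beside 0.09 over all tested genes. E2F8 had the highest ratio at 0.56 and E2F7 followed at 0.53, and E2F1 (-0.16) and E2F2 (-0.26) were lower. No member passed 2-fold with the added 1, as 1.91% of tested genes did. Without it E2F8 was at 1.22 ± 0.595. The ratios with NCD38-β2P4 moved with GC too, with Spearman's rho of -0.535 on day 4 and -0.522 on day 30 and a day 4 median of 0.34 in the fifth of genes lowest in GC.

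On day 30 the members stood closer to DMSO. The ratios ran from -0.26 in E2F1 to 0.26 in E2F3 with NCD38, from -0.03 in E2F1 to 0.40 in E2F8 with NCD38-β2P4, and from -0.43 in E2F5 to 0.21 in E2F2 with NCD38-β2PIPP. None passed 2-fold with the added 1, against 1.66%, 1.0% and 1.17% of tested genes. RB1, at 1.05 with NCD38-β2PIPP on day 4, was at -0.24 on day 30, and RBL1 went from 1.17 to 0.13. With 1 library per condition, no single ratio and no such change could be tested.

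The 3 compounds differ by the presence of the polyamide and by an imidazole in it, and were given at the same labeled dose on the same days. In 3 pairwise contrasts over both days, limma called 0 of 9 members in each. For NCD38-β2PIPP minus NCD38, 1 member had an unadjusted p under 0.05, as had 6.37% of all tested genes, and for the other contrasts none had. The background of calls was 0.00920% for NCD38-β2P4 minus NCD38, 0.0184% for NCD38-β2PIPP minus NCD38 and 0.0276% for NCD38-β2P4 minus NCD38-β2PIPP.

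That 1 member was E2F7. It was higher with NCD38-β2PIPP than with NCD38 by 0.93 (95% interval 0.013 to 1.85, adjusted p = 0.53) and higher on both days, by the levels given above. It was 0.34 (-0.063 to 0.75) with the GC trend subtracted. With genes below the filter included as well, it was 0.57 (0.037 to 1.11), not called (limma, adjusted p = 0.60). RBL1 differed by 0.71 (-0.12 to 1.54), E2F3 by 0.71 (-0.45 to 1.88) and E2F6 by 0.63 (-0.12 to 1.37). For E2F1 (-0.08, -0.66 to 0.51) and E2F4 (-0.05, -0.39 to 0.30) the intervals left out a 2-fold difference. For NCD38-β2P4 minus NCD38, the highest difference was again that of E2F7, at 0.76 (-0.16 to 1.68). Between the conjugates, differences ran from -0.34 in RBL1 (-1.17 to 0.48) to 0.18 in E2F5 (-0.84 to 1.19). All 3 intervals of E2F2 stayed within 1 on the log2(FPKM + 1) scale. With the added 1, this does not exclude a 2-fold FPKM difference in so low a gene. Those of E2F3, E2F5, E2F7, RB1 and RBL1 each reached past 1, as did those of E2F6 for either conjugate minus NCD38. Equal action is not shown.

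Genes of the same pathway were counted beside the members, from lists chosen with earlier results known. Between the days, 61.9% of all tested genes were called. With the GC trend subtracted it was 56.1% of 10088 genes, with 2853 higher and 2809 lower. No listed gene was called in any contrast between treatments. In those contrasts, at an unadjusted p under 0.05, 5 of the 34 tested G1/S targets were found for NCD38-β2P4 minus NCD38, beside 3.24% of all tested genes, and 4 of the 24 tested G2/M genes for NCD38 against DMSO, beside 1.33%. No list had more in another contrast. The median of all tested genes was -0.02 between the days.

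RB pathway partners had 1 gene higher and 3 lower of 11 tested, with a median of 0.15. MYBL2, the MYB factor of the activating MuvB complex, fell by 2.197 and FOXM1, which joins it for G2/M genes, fell by 1.93 (adjusted p = 0.000567 and 0.000547). HDAC1, a deacetylase that pocket proteins recruit, fell by 0.50. LIN54, the DNA-binding MuvB subunit, rose by 0.73, but was lower by -0.48 and called when the GC trend was subtracted. LIN9 was not tested. With the GC trend subtracted, 2 of the 11 were higher and 6 lower.

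Of the G1 cyclins and their kinases, 3 rose and 4 fell of 11 tested, with a median of 0.16. CCND3, a D-type cyclin that starts RB1 phosphorylation, fell by 1.65 (adjusted p = 0.000476). CCNC (cyclin C) rose by 2.43, CDK3 by 1.25, and CCNE2 (cyclin E2) by 1.63, from a mean of 0.525 to 3.70 FPKM. Subtracting the GC trend left CCND3 at -0.86, CCNC at 0.85 and CDK3 at 1.97, all called. CCNE2 then kept only 0.042 (limma, adjusted p = 0.835). Then 4 were higher and 3 lower. CDK6 was not tested. The CDK inhibitors split evenly, with 2 of 6 tested higher and 2 lower. CDKN1A (p21) fell by 1.61, from a mean of 177 to 57.2 FPKM, and CDKN2C (p18) fell by 1.19. CDKN1C (p57) rose by 0.58 and CDKN2B (p15) by 0.55, the latter at 0.14 and not called with the GC trend subtracted. CDKN2A was not tested, with a mean of 0.105 FPKM.

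The PRC1.6 partners of E2F6 had 5 genes higher and 3 lower of 10, with a median of 0.79. CBX3 (HP1γ) rose by 3.48, from a mean of 7.33 to 78.2 FPKM, and PCGF6, the defining subunit of this Polycomb complex, by 1.46. L3MBTL2 fell by 1.36. Subtracting the GC trend left CBX3 at 1.90, PCGF6 at 0.53 and L3MBTL2 at -0.73, all called. RNF2, a ubiquitin ligase, rose by 1.18, but was lower by -0.40 and called with the GC trend subtracted, when 3 of the 10 were higher and 6 lower. Of the germline genes that E2F6 is known to silence, none was tested. STAG3 was at 0.0489 to 0.299 FPKM over the 8 libraries, SMC1B, MAEL, TUBA3C and TUBA3D at 0 to at most 0.138, and SLC25A31 was listed at 0.

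Among G1/S targets of E2F, 19 of 34 tested fell and 7 rose, with a median of -0.68. MCM2 and MCM7, of the replicative helicase, fell by 1.69 and 1.65, and TK1, thymidine kinase, fell by 1.59 (adjusted p = 0.000862, 0.000541 and 0.00313). PCNA, also a classical E2F target, rose by 1.01, to a mean of 162 FPKM, and was chosen after its values were seen. Subtracting the GC trend left MCM2 at -0.97, MCM7 at -1.02, TK1 at -0.80 and PCNA at 0.33, all called. MYB was not tested. With the GC trend subtracted 16 were lower and 4 higher. The G2/M genes of the DREAM and MMB complexes split, with 8 of 24 tested higher and 8 lower and a median of -0.37. PLK1, a mitotic kinase, fell by 3.48, from a mean of 87.7 to 7.79 FPKM. CDK1 rose by 2.97, NUF2 by 2.83 and CENPF by 2.46, the latter pair being kinetochore genes. Subtracting the GC trend left PLK1 at -2.77, CDK1 at 1.38, NUF2 at 1.41 and CENPF at 1.36, all called. With the GC trend subtracted 4 were higher and 13 lower. CENPE and HMMR were not tested.

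Likeness between genes was measured as Pearson's r of log2(FPKM + 1) over the 8 libraries after the mean of each day was taken out. These 8 values share libraries and base composition, and r is given as a description. Within the members, E2F3 and E2F6 (0.928), E2F3 and E2F7 (0.924), RB1 and RBL1 (0.910), and E2F7 and RBL1 (0.906) varied together, and E2F1 ran opposite to E2F5 (-0.891), E2F3 (-0.886) and RB1 (-0.873). The non-members most like RB1 were OSBPL11 (0.999) and CHD1 (0.997), those most like E2F7 were AIMP1 (0.998) and IFT57 (0.997), and those most like E2F3 were RIOK3 and USP7 (both 0.998). E2F1 was most like EXOSC5 (0.992) and ARFGAP2 (0.990), whose transcripts had 60.7% and 56.3% GC, and RBL1 was most like FAR1 (0.991) and USO1 (0.9905), with 34.9% and 39.0% GC. E2F4 stood near SNAI1 (0.980), and E2F2 near TRAF3IP2-AS1 (0.987), whose reads may be shared with its antisense partner.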

How the data were processed

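RNA was sequenced from RKO cells in 8 conditions, 1 library each. Per the labels and methods, stranded mRNA libraries were made. The authors aligned reads with TopHat and deposited Cufflinks FPKM values per gene. The submitters' processing notes name HISAT2 2.2.1.0, Cufflinks and hg19. These sources differ in the aligner, so the aligner and build behind the deposited RNA-seq values are not certain. The annotation is not given in the sources used here. FPKM holds no counts. Chromatin samples were not analysed here.

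The 90 entries of 45 repeated symbols were left out. Genes with a mean FPKM of at least 1 (10865) were fitted on log2(FPKM + 1) with limma 3.58.1 (R 4.3.3, eBayes with trend), with Benjamini-Hochberg adjustment over all of them and a threshold of 0.05. The added 1 understates changes of low genes. The day contrast had treatment as a block, and treatment contrasts had day as a block. The fit was tested on simulated data. Transcript GC and length came from GENCODE 44 on GRCh37, matched for 10088 tested genes. The GC trend is the median deviation in 20 bins by GC within each library. Depth was read from where the lowest FPKM values pile up, and counting errors derived from it are approximate. Python 3.11.15 was used.

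Members and lists were chosen with earlier results of these data known. Named were all members. From each list, up to 4 called genes with the largest difference were named, and for likeness the 2 genes of highest r, of which the text gives a part. Listed genes that were not tested were named after their values were seen. Alternatives changed the constant (0.1), filter, scaling, GC trend, DMSO comparator and libraries. The filter and GC trend were changed together after the data were seen, because E2F8 was not tested, and leaving out libraries in contrasts of single inhibitors was also added then.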

Additional observations from a re-analysis of the deposited data

How the results depend on the processing

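E2F1 and E2F2 fell between the days under all 14 alternatives, and E2F4 under 13. Leaving out 1 library, which also removes the use of its partner, gave -1.47 to -1.19 in E2F1, -1.50 to -1.36 in E2F2 and -0.81 to -0.75 in E2F4. Members called higher, 2 of 9, were 4 after rescaling, with E2F3 and RBL1 added. Of all 10865 tested genes, 4238 were called higher after rescaling. Members called higher were 1 with no filter and the GC trend subtracted, and 0 to 3 without 1 library. There were 0 without either DMSO library and 1 without either NCD38-β2P4 library. Members called lower, 3, were 5 with no filter and the GC trend subtracted, where E2F8 (-0.49, limma, adjusted p = 0.0155) was among them. Of all 15599 genes in that setting, 4329 were called higher and 4487 lower. All genes called higher numbered 2184 to 3580 without 1 library. With the GC trend subtracted RB1 was -0.15 and RBL1 -0.63, and with no filter as well RBL1 was -0.12 and RB1 0.47 (limma, adjusted p = 0.0569). E2F4 was -0.07 with the GC trend subtracted and -0.51 with no filter as well. E2F7 was 0.14 after rescaling and -0.28 to 0.19 without 1 library, with 0.19 without either NCD38-β2PIPP library. RB1 with NCD38-β2PIPP on day 4 was -0.61 against DMSO of the other day. Apart from the construction of these settings, the cause was not tested. Without the treatment block no call of a member changed.

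No member was called between treatments under any alternative. All genes called for any inhibitor, 1 as reported, were 2 with the constant 0.1, 2 without the filter, 2 after rescaling, 0 with the GC trend subtracted (limma, 83 at an unadjusted p under 0.05) and 1 to 23 without 1 library, with 23 and 7 without the DMSO library of day 30 and of day 4. For NCD38 there were 2 without the filter. NCD38-β2P4 had 4 with the constant 0.1, 1 without the filter and 1 with the GC trend subtracted. For NCD38-β2PIPP there were 1 with the constant 0.1 and 1 with the GC trend subtracted. NCD38-β2P4 minus NCD38 had 2 with the constant 0.1. Leaving out 1 library gave 0 to 21 for NCD38, 0 to 20 for NCD38-β2P4 and 0 to 27 for NCD38-β2PIPP against DMSO, and 0 to 13 for NCD38-β2P4 minus NCD38, 0 to 27 for NCD38-β2PIPP minus NCD38 and 0 to 27 for NCD38-β2P4 minus NCD38-β2PIPP, with no member among them. Low members, with an estimated 14.7 fragments of E2F8 in the NCD38 library of day 4, are limited by depth.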
